A study of Mus musculus with 9 samples.

Results

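Apolipoproteins are the protein coat of lipoproteins, the particles that carry cholesterol and triglyceride in blood. Here the transcripts of 10 apolipoprotein genes, Apoa1, Apoa2, Apoa4, Apoa5, Apob, Apoc1, Apoc2, Apoc3, Apoe and Apom, were followed through mouse liver cancer and its treatment with miR-22. They were picked by gene symbol from the 55401 genes of the count table, and all 10 had enough counts to be tested. RNA sequencing covered 9 whole livers of female mice aged 6 weeks at purchase, 3 per group. Healthy livers were wild type and received neither plasmids nor virus. In both HCC groups, mice were given transposon plasmids by hydrodynamic tail vein injection, with AKT driven by an EF1α promoter and NRAS by a Caggs promoter, neither of which is specific to hepatocytes. After 1 week they received AAV8 intravenously, either a blank vector (untreated HCC) or one expressing miR-22 from a CMV promoter (miR-22-treated HCC), and livers were taken 5 weeks after the plasmids. The sample descriptions do not settle the strain (C57BL/6 or FVB/N, depending on the field), while the study's methods name FVB/N for the sequenced livers. The descriptions also list a β-catenin plasmid beside a design that names RAS and AKT alone, and give a viral dose that differs from the study's methods. A fold change between HCC and healthy liver therefore spans tumor, injection and blank virus together. In what the mice were given, miR-22-treated and untreated HCC differ by the vector's cargo. The study reports less tumor in livers treated with miR-22, so these groups also differ in tumor load. The part of tumor load in the values below was not tested.

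The liver makes most circulating apolipoproteins. Apob is the scaffold of very low-density lipoprotein (VLDL), Apoa1 and Apoa2 are the chief proteins of high-density lipoprotein (HDL), and smaller exchangeable members move between particles and tune lipoprotein lipase, the enzyme that unloads triglyceride in tissues. Apoc2 activates this lipase and Apoa5 raises its action, while Apoc3 and Apoc1 hold back triglyceride clearance. Apoe is a ligand for hepatic lipoprotein receptors, Apoa4 is tied to triglyceride transport and lipid-loaded liver, and Apom carries sphingosine-1-phosphate on HDL.

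Libraries held 16664659 to 23908392 counts, and livers of 1 group differed from each other with a chi-square of 6.15 to 30.1 times its degrees of freedom, well beyond counting error. Albumin fell from 8.66% to 8.97% of counts in healthy liver to 5.11% to 5.73% in untreated HCC, while treated livers gave it 6.16% to 6.86%. Akt1, the mouse counterpart of an injected oncogene, had 2002 to 2105 normalized counts in healthy liver, 22700 to 32454 with the blank virus and 13027 to 21424 with miR-22. Normalized counts here are counts scaled by edgeR's TMM factors to the mean library, and errors are SD over 3 livers. The livers are labelled as separate samples, and the study's methods give n = 3 without saying whether each came from a separate mouse. The p-values therefore measure the spread between these samples. In bulk tissue, fewer hepatocytes and less RNA per hepatocyte cannot be told apart.

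Markers of liver cell types were summed beside these genes, and their part in the results for the apolipoproteins was not tested. All 10 hepatocyte markers were present, and their sum was 3074000 to 3270000 normalized counts in healthy liver, 1751000 to 2061000 with the blank virus and 2283000 to 2603000 with miR-22; 7 were called lower and 2, Hpx and Trf, higher in untreated HCC. The 6 cholangiocyte markers, led by Spp1, summed to 582 to 813.5, 64540 to 120600 and 30330 to 52430 in the same order. The 8 stellate and fibroblast markers summed to 6837 to 8300, 16670 to 19310 and 13990 to 15830, and the 10 macrophage markers to 7789 to 9585, 9286 to 10370 and 10850 to 11470. Endothelial sums were 7103 to 8862, 4475 to 5671 and 5928 to 7582, lymphocyte sums 176.9 to 257.3, 235.5 to 320.6 and 243.7 to 292.9, and neutrophil sums 34.23 to 85.37, 309.5 to 419.6 and 285.8 to 449.4, with Ly6g at 0 in healthy and untreated livers. Because the intestine also makes Apoa1, Apoa4 and Apob, 8 enterocyte markers were read: they summed to 3632 to 4143, 5000 to 5126 and 4845 to 5855, nearly all from Anpep and Fabp2, while Alpi, Cdx2 and Sis were at 0 in every library.

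Of the 10 genes, 4 lie together on chromosome 9. In GRCm39 with GENCODE M39, Apoa1 (chr9:46139878-46142212, plus strand), Apoc3 (chr9:46142527-46146934, minus strand), Apoa4 (chr9:46151994-46154757, plus strand) and Apoa5 (chr9:46179931-46183217, plus strand) span 43.3 kb. This cluster held both the gene that rose and the gene with the steepest fall in HCC, so the promoters of Apoa1, Apoa4 and Apoa5 are shown, 5′ to 3′. They are RefSeq windows of 250 bases before the start in build GRCm38.p6, cut where GENCODE places an earlier start, which left 200 bases for Apoa1 and 102 for Apoa4. Apoc3 and Apoc1 had no window. Capitals mark motif matches.
Apoa1 (chr9:46228380-46228579, plus strand): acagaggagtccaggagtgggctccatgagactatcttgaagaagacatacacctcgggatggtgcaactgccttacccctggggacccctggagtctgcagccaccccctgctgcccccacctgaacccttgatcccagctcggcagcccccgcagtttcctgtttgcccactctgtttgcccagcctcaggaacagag
Apoa4 (chr9:46240594-46240695, plus strand): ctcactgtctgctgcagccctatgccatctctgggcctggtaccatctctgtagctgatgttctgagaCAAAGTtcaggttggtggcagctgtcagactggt
Apoa5 (chr9:46268358-46268607, plus strand): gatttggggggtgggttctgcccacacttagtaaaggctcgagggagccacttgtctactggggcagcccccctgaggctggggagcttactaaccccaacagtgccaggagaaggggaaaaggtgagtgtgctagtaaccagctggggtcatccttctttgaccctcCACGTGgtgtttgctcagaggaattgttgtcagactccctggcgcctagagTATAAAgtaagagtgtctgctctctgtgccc

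Both strands were searched for the HNF4-type site CAAAGTCCA and its short form CAAAGT. They were also searched for the nuclear receptor site CAAAGGTCA and the shorter receptor motif AGGTCA. The TATA box core TATAAA and the E-box motif CACGTG completed the search. CAAAGT lies within CAAAGTCCA, AGGTCA lies within CAAAGGTCA, and CACGTG reads the same on both strands. Apoa5 held TATAAA 31 bases and CACGTG 82 bases before its RefSeq start, Apoa4 held CAAAGT 182 bases before its RefSeq start, which lies 148 bases past the end of the printed stretch, and Apoa1 held none of the 6 motifs. Among 32851 RefSeq windows of 250 bases, 12.4% held TATAAA, 6.02% CACGTG, 12.6% CAAAGT and 14% AGGTCA, while CAAAGTCCA was in 0.384% and CAAAGGTCA in 0.426%. Of the other members with a window (8 of 10 had at least 1, 12 windows in all), Apob held TATAAA 60 bases before its start, Apoa2 held TATAAA 212 bases before one start and AGGTCA 238 bases before another, Apoc2 held CAAAGT and AGGTCA, 1 of 3 Apoe windows held TATAAA, and Apom held none. These matches are letters in a window and were not tested for binding.

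The first comparison asked what the RAS/AKT tumor model did to these transcripts. In untreated HCC 7 of the 10 genes fell, by log2 fold changes from −0.73 (Apoe) to −2.10 (Apoa5), Apoa4 rose 3.84-fold, and Apob and Apoc2 were not called. A gene was called at an edgeR adjusted p under 0.05 with a fold change over 1.5. The 7 lower genes stand against 18.1% of all 15717 tested genes that were called lower, and the 1 higher gene against 22.7% called higher. All 3 livers of one group lay outside the range of the other for 9 of the 10 genes, against 65.3% of all tested genes. The median log2 fold change was −1.10 over the 10 genes and 0.01 over all tested genes.

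The second comparison asked what miR-22 did relative to the blank virus. With miR-22, 5 of the 10 genes rose, Apoa1, Apoa2, Apoa5, Apoc1 and Apoc3, against 8.32% of tested genes called higher, and 0 fell, against 5.47% called lower. At an unadjusted p under 0.05 in the same edgeR fit, 0 of the 10 were lower, and with DESeq2 0 were called lower. Groups did not overlap for 8 of the 10 genes, all with the miR-22-treated livers higher, against 39.3% of tested genes. The median log2 fold change was 0.60 over the 10 genes and 0.002 over all tested genes. Compared with healthy liver, the miR-22-treated HCC livers had 4 genes lower, Apoa2, Apoa5, Apoc1 and Apoc3, against 7.05% of tested genes called lower, and 1 higher, Apoa4, against 16.9% called higher. These 3 comparisons share livers, so the fold changes of a gene are given side by side and not as independent evidence.

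**Figure D1:**
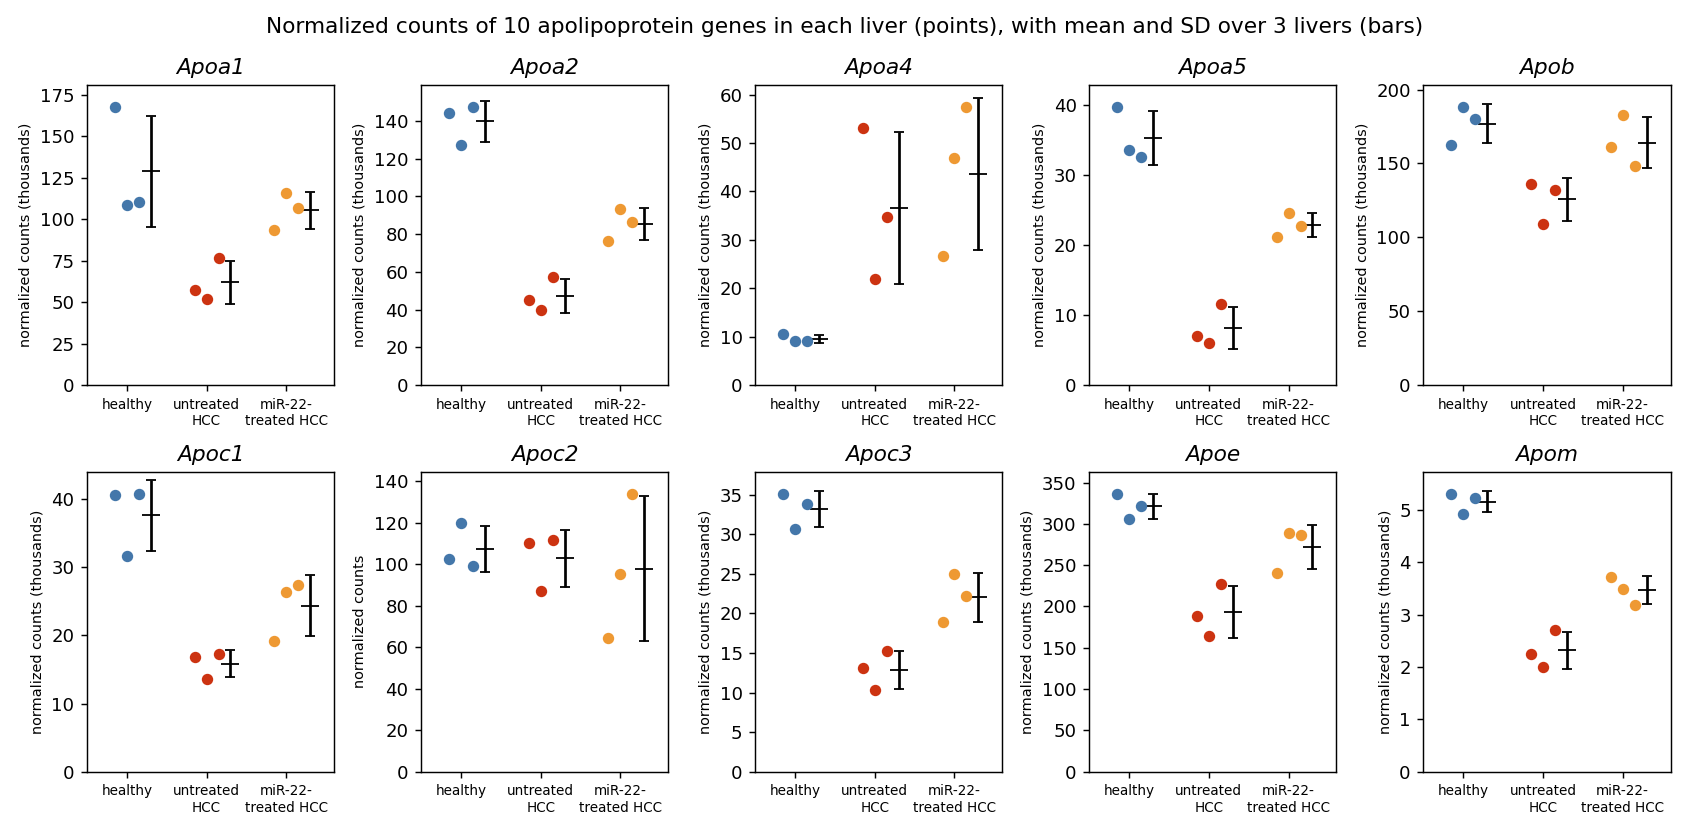
Normalized counts (vertical axes, from 0, in the units each axis names) of the 10 apolipoprotein genes in healthy, untreated HCC and miR-22-treated HCC livers; points are livers and bars the mean with SD over 3 livers. Of the genes shown, 8 are lowest on average in untreated HCC, Apoa4 is lowest in healthy liver, and the Apoc2 groups overlap.

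**Figure D2:**
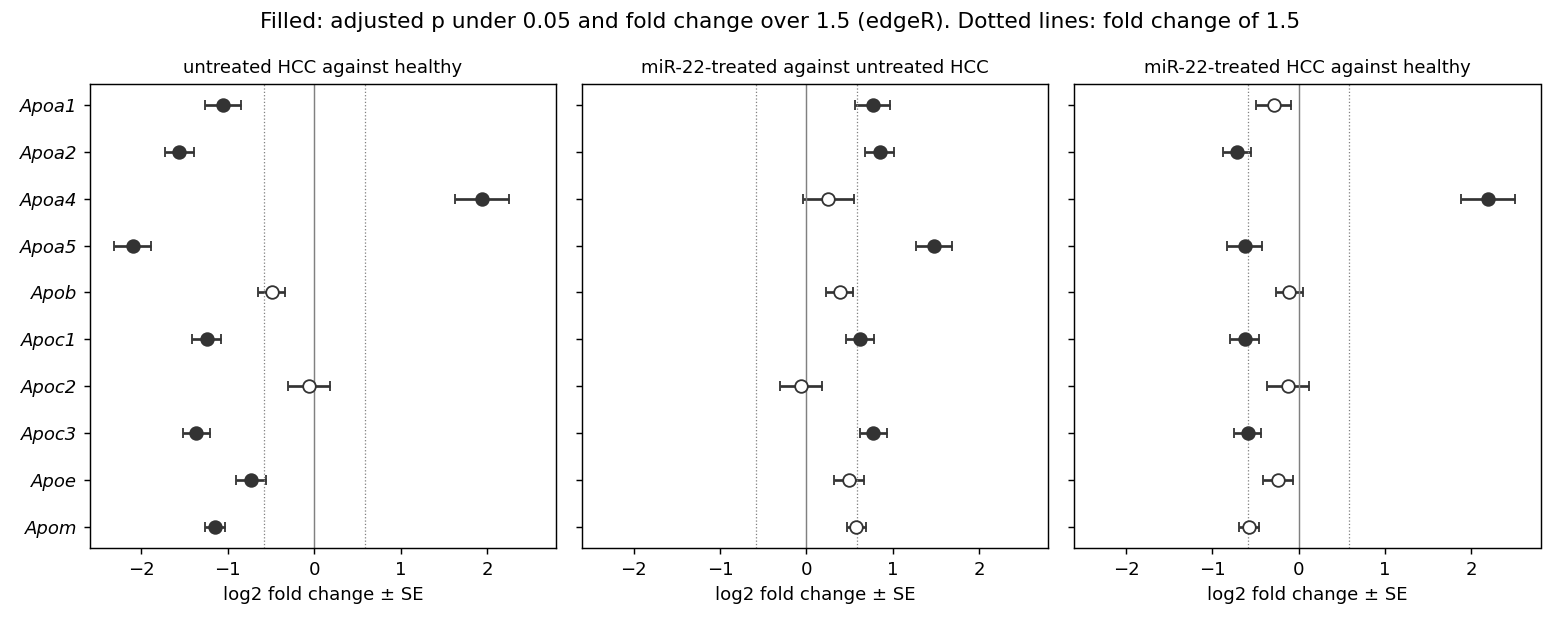
Log2 fold changes with standard errors (horizontal axes) of the 10 genes in the 3 comparisons; filled points were called by edgeR and dotted lines mark a fold change of 1.5. Apoa4 alone lies to the right of 0 against healthy liver, at 1.94 in untreated and 2.20 in miR-22-treated HCC.

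Among the HDL proteins, Apoa1, the chief HDL protein and activator of LCAT, had 167600, 108400 and 110600 normalized counts in the healthy livers, 57480, 51710 and 76540 in untreated HCC and 93640, 115600 and 106700 in miR-22-treated HCC. The untreated livers lay below all others, and the miR-22-treated range overlapped the healthy one, in which replicate 1 stood above its group. The log2 fold change was −1.06 ± 0.21 (SE, adjusted p = 0.000743) in untreated HCC against healthy liver, 0.77 ± 0.20 (adjusted p = 0.0171) with miR-22 against untreated HCC, and −0.29 ± 0.20 (adjusted p = 0.289) in miR-22-treated HCC against healthy liver. The rise with miR-22 was not called without untreated replicate 2 (0.72, adjusted p = 0.0747) or 3 (0.65, adjusted p = 0.0676), or without miR-22-treated replicate 3 (0.69, adjusted p = 0.0656).

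Apoa2, the second HDL protein, is a small gene on chromosome 1 (chr1:171049125-171053948, GRCm39, plus strand). Its normalized counts were 144300, 127400 and 147200 in healthy liver, 44830, 39920 and 57330 in untreated HCC, and 76160, 93020 and 86170 in miR-22-treated HCC. None of the 3 groups overlapped another, with the treated livers in the middle. Its log2 fold changes were −1.56 ± 0.17 (adjusted p = 5.64e-06), 0.85 ± 0.16 (adjusted p = 0.00324) and −0.71 ± 0.16 (adjusted p = 0.00444) in the same order, and each call held with any liver left out.

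Apom, which carries sphingosine-1-phosphate on HDL (chr17:35347973-35351026, GRCm39, minus strand), had 5304, 4926 and 5229 normalized counts in healthy liver, 2252, 2007 and 2700 in untreated HCC and 3723, 3490 and 3189 in miR-22-treated HCC. Again the 3 groups did not overlap. It fell by 1.15 ± 0.12 on the log2 scale in untreated HCC (adjusted p = 3.48e-06). With miR-22 the log2 fold change was 0.58 ± 0.11 (adjusted p = 0.00369), just under the fold threshold of 1.5, at 1.49-fold. It passed that threshold without untreated replicate 4 (0.70) or miR-22-treated replicate 4 (0.64), and miR-22-treated livers against healthy, at −0.57 ± 0.11 (adjusted p = 0.00197), passed it without healthy replicate 2 (−0.61) or miR-22-treated replicate 2 (−0.64).

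Among the proteins that tune triglyceride clearance, Apoa5, which raises lipoprotein lipase action, had the largest fall of the 10. Healthy livers had 39670, 33510 and 32520 normalized counts, untreated HCC 6990, 5974 and 11620, and miR-22-treated HCC 21150, 24560 and 22750. The 3 groups did not overlap, and the untreated mean was 0.233 of the healthy one. The log2 fold change was −2.10 ± 0.21 (adjusted p = 3.84e-06) in untreated HCC and 1.48 ± 0.21 (adjusted p = 0.00065) with miR-22, the largest rise of the 10, and both calls held with any liver left out. Against healthy liver, the treated livers were at −0.63 ± 0.21 (adjusted p = 0.0307), a call lost without healthy replicate 1 (−0.55, adjusted p = 0.0934) or 2 (−0.67, adjusted p = 0.0577), or without miR-22-treated replicate 2 (−0.59, adjusted p = 0.0829) or 4 (−0.63, adjusted p = 0.0674). Of the 31-base words of its canonical transcript, 17.9% also occur, on the opposite strand, in Gm47544, which had 0 counts in every library. These libraries do not mark strand, so reads of that stretch cannot be told apart.

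Apoc3, which holds back lipase and remnant uptake, had 35110, 30710 and 33840 normalized counts in healthy liver, 13070, 10340 and 15200 in untreated HCC and 18880, 25040 and 22200 in miR-22-treated HCC. Each group lay apart from the others. The log2 fold changes were −1.37 ± 0.16 (adjusted p = 1.1e-05), 0.78 ± 0.16 (adjusted p = 0.00401) and −0.59 ± 0.16 (adjusted p = 0.0101). The last value lay at the fold threshold and was not called without healthy replicate 1 (−0.57) or miR-22-treated replicate 2 (−0.50). Nor was it called with no filter on low counts (−0.585) or with at least 10 counts required in every library (−0.563). The call was also lost on library totals (−0.41) and with the replicate number as a block (−0.62, edgeR adjusted p = 0.069).

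Apoc1, an inhibitor of lipase and of receptor binding by remnants (chr7:19422540-19427328, GRCm39, minus strand), had 40540, 31630 and 40760 normalized counts in healthy liver, 16790, 13570 and 17270 in untreated HCC and 19210, 26430 and 27460 in miR-22-treated HCC. All healthy livers were above all treated livers, and all treated livers above all untreated ones. Its log2 fold change was −1.25 ± 0.17 (adjusted p = 3.95e-05) in untreated HCC, and 0.62 ± 0.17 (adjusted p = 0.0173) with miR-22. The rise was not called without untreated replicate 3 (0.51, adjusted p = 0.0734), or without miR-22-treated replicate 3 (0.56, adjusted p = 0.0717) or 4 (0.52, adjusted p = 0.0458, under the fold threshold). Treated livers were at −0.63 ± 0.17 against healthy (adjusted p = 0.0103), under the fold threshold without healthy replicate 3 (−0.58) or miR-22-treated replicate 2 (−0.49).

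Apoc2, the obligate cofactor of lipoprotein lipase (chr7:19405504-19411877, GRCm39, minus strand), was counted at a far lower level than the other 9. Its deposited counts were 84, 98 and 93 in healthy liver, 121, 100 and 154 in untreated HCC, and 58, 77 and 145 in miR-22-treated HCC. The groups overlapped, and the log2 fold changes were −0.06 ± 0.24, −0.07 ± 0.24 and −0.12 ± 0.25 (adjusted p = 0.86, 0.877 and 0.735). These values are uncertain: 80.4% of the 31-base words of its canonical transcript also occur in Apoc2l, listed in the table as Gm44805 with 60 to 129 counts, while the neighboring Apoc4 had 4782 to 10921 counts. How reads of this locus were shared out was not tested.

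Apoa4 stood apart. This gene, expressed mostly in the intestine and in liver under lipid load, had 10480, 9060 and 9004 normalized counts in healthy liver, 53040, 21890 and 34770 in untreated HCC, and 26590, 46850 and 57390 in miR-22-treated HCC. Every HCC liver, treated or not, was above every healthy one, and the HCC groups overlapped. The log2 fold change was 1.94 ± 0.31 (adjusted p = 0.000157) in untreated HCC and 2.20 ± 0.31 (adjusted p = 0.000178) in miR-22-treated HCC against healthy, a 4.58-fold difference, and both calls held with any liver left out. Between the HCC groups it was 0.25 ± 0.30 (adjusted p = 0.586), and −0.01 without untreated replicate 3. The spread among HCC livers, from 21890 to 57390, was wide. On the opposite strand, 32.3% of the 31-base words of its canonical transcript occur in Gm10680 (0 counts in every library) and 32.3% in Gm47528 (22 to 243 counts), and reads of that stretch cannot be told apart by strand.

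By group means of counts, which are not corrected for transcript length, the genes of the receptor-binding proteins were highest in every group. Apob, the scaffold of VLDL and LDL (chr12:8027648-8066835, GRCm39, plus strand), had 162700, 188100 and 180300 normalized counts in healthy liver, 136100, 108800 and 132200 in untreated HCC and 160800, 182500 and 148500 in miR-22-treated HCC. Untreated livers were the lowest, and treated and healthy livers overlapped. The log2 fold change of −0.49 ± 0.16 in untreated HCC had an adjusted p of 0.0164 with a fold change under 1.5, so it was not called. With miR-22 it was 0.38 ± 0.16 (adjusted p = 0.0952).

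Apoe, the ligand by which remnants enter hepatocytes (chr7:19430034-19434947, GRCm39, minus strand), had 336200, 305500 and 322000 normalized counts in healthy liver, 188900, 164500 and 226900 in untreated HCC, and 241100, 288800 and 286700 in miR-22-treated HCC. The groups did not overlap. Its fall of 0.73 ± 0.17 on the log2 scale was called (adjusted p = 0.00278). The difference with miR-22, 0.49 ± 0.17, was not (adjusted p = 0.0537), though it was without untreated replicate 4 (0.62, adjusted p = 0.0179).

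Scaling mattered for the size of these changes. With library totals in place of TMM factors, the median of all tested genes moved by 0.42 in untreated HCC against healthy liver, by −0.24 with miR-22 and by 0.19 between treated and healthy liver, and the share of calls that were higher went from 55.7% to 80%, from 60.4% to 27.8% and from 70.6% to 85.2%. On those totals Apoa4 was at 2.36 and Apoa5 at −1.69 in untreated HCC, Apoe was not called (−0.32, adjusted p = 0.0516), and 2 genes rose with miR-22, Apoa2 (0.61) and Apoa5 (1.25).

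The share of a library rests on library totals, and only the ratios of genes and their shares of the summed 10 are free of scaling. The 10 genes together took 4.23%, 3.74% and 3.94% of all counts in the healthy livers, 3.08%, 2.64% and 3.32% in untreated HCC and 3.39%, 3.91% and 4.03% in miR-22-treated HCC. Untreated livers lay below the rest, and treated and healthy livers overlapped. The mean was 3.01 ± 0.35% in untreated HCC and 3.97 ± 0.25% in healthy liver (SD, n = 3, exact permutation test, two-sided, p = 0.1, the smallest that 3 against 3 can give). It was 3.78 ± 0.34% in miR-22-treated HCC (exact permutation p = 0.1 against untreated HCC and 0.5 against healthy liver). Counting error is small here, with a 95% exact binomial interval of 2.63% to 2.64% for the lowest liver.

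Within the sum, Apoe and Apob made up 36.2 ± 0.45% and 20.0 ± 2.6% in healthy liver, 38.4 ± 1.8% and 25.1 ± 1.8% in untreated HCC, and 36.6 ± 0.94% and 22.2 ± 2.4% in miR-22-treated HCC. Apoa2 went from 15.2% to 16.7% of the sum in healthy liver to 8.63% to 9.98% in untreated HCC, and was 11.3% to 11.5% with miR-22. Apoa4 took 1.02% to 1.11%, 5.23% to 10.2% and 4.02% to 7.54%, and Apoa5 3.69% to 4.21%, 1.35% to 2.02% and 2.99% to 3.20%. Apoa4 and Apoa5 thus exchanged order: each healthy liver had more Apoa5 than Apoa4, and each HCC liver the reverse.

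**Figure D3:**
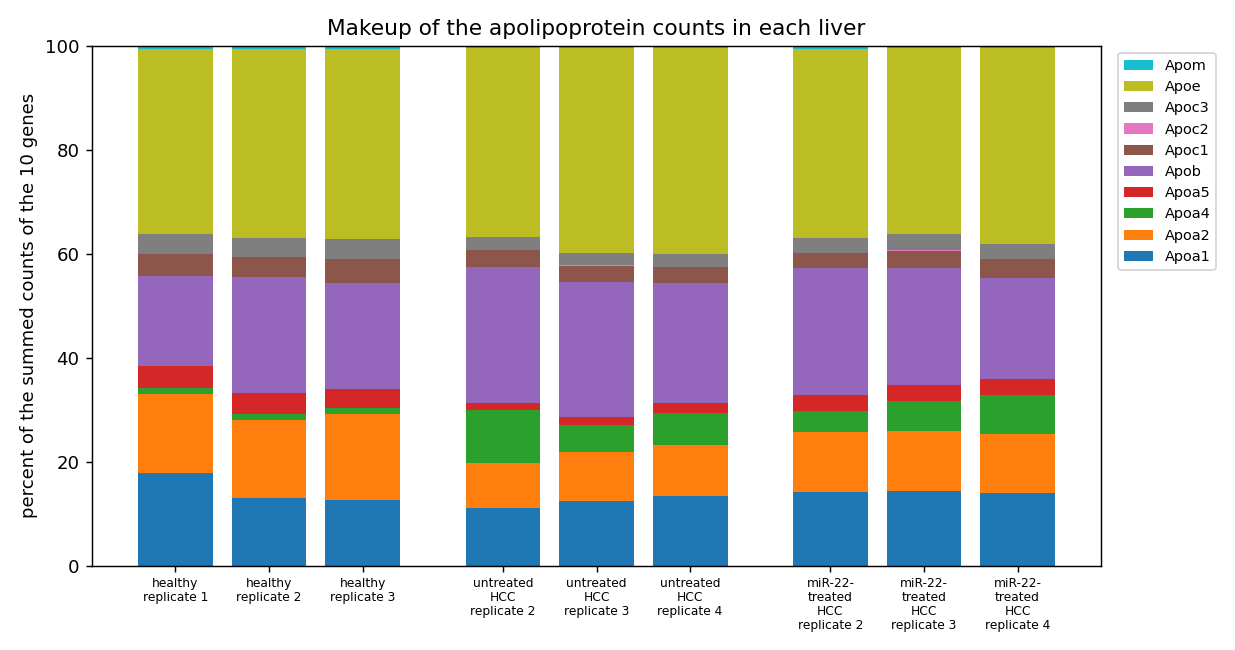
Share of each gene in the summed counts of the 10 apolipoprotein genes (vertical axis, percent), 1 bar per liver. The Apoa4 band takes 1.02% to 1.11% in healthy livers and 4.02% to 10.2% in the HCC livers, and the Apoa2 band is narrower in all HCC livers.

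Neighbors in the chromosome 9 cluster were also set against each other by the ratio of their counts in each liver. The ratio Apoa4/Apoa1 was 0.0625, 0.0836 and 0.0814 in healthy liver, 0.923, 0.423 and 0.454 in untreated HCC and 0.284, 0.405 and 0.538 in miR-22-treated HCC. Apoa5/Apoa1 was 0.237, 0.309 and 0.294, then 0.122, 0.116 and 0.152, then 0.226, 0.212 and 0.213. The first ratio was higher in all HCC livers than in any healthy one, and the second was lowest in untreated HCC, with the treated livers between the other groups. Apoc3/Apoa1 ranged over 0.21 to 0.306, 0.199 to 0.227 and 0.202 to 0.217, with overlap between all groups. In the chromosome 7 cluster of Apoe, Apoc1 and Apoc2 (29.4 kb), Apoc1/Apoe was 0.104 to 0.127 in healthy liver, 0.0761 to 0.0889 in untreated HCC and 0.0797 to 0.0958 in treated HCC, so every HCC liver was below every healthy one.

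**Figure D4:**
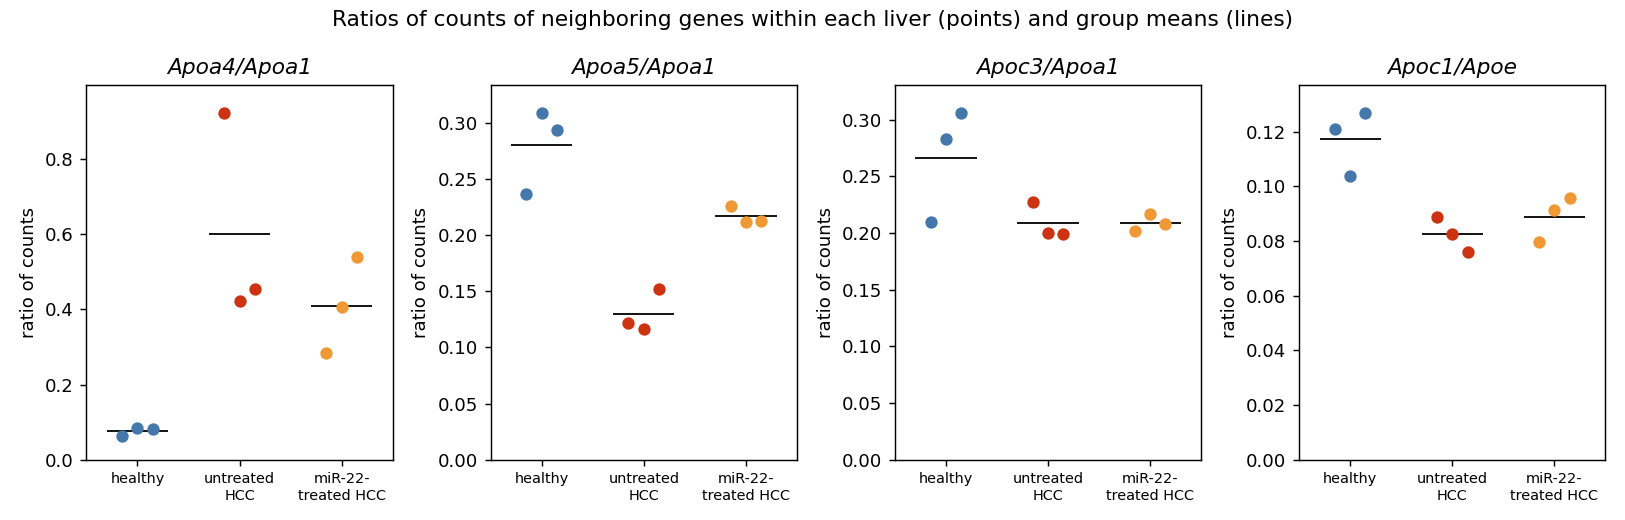
Ratios of the counts of neighboring apolipoprotein genes within each liver (vertical axes, from 0); points are livers and lines group means. Apoa4/Apoa1 is at most 0.0836 in healthy livers and at least 0.284 in HCC livers, while Apoa5/Apoa1 is lowest in untreated HCC.

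Levels per kilobase used the median length of each gene's CCDS transcripts in GENCODE M39. They are given as CPM, here counts scaled to a common total with the TMM factors. Healthy liver had 12680 ± 971 CPM per kb of Apoa2, 7584 ± 363 of Apoe and 4436 ± 1150 of Apoa1, ahead of Apoc1 at 1373 ± 190. Untreated HCC had 4299 ± 816 of Apoa2 and 4565 ± 743 of Apoe, which did not differ beyond their spread. Apoc3, Apoa5 and Apob, at 708.9 ± 48.4, 695.8 ± 76.5 and 654.3 ± 48.1 in healthy liver, were likewise within their spread of each other, Apoa4 (270 ± 23.7) and Apom (262 ± 10.2) followed, and Apoc2 was the lowest at 7.0 ± 0.73. In miR-22-treated HCC Apoa4 stood at 1237 ± 444, above Apoc1 at 888.7 ± 164 but within their spread. These levels depend on the annotated lengths, which ran from 493 to 3559 bases for Apoa2 and from 1267 to 3088 bases for Apoe, so the order of these genes is uncertain.

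The rest of the pathway is given by lists, to be read against the 22.7% of all tested genes called higher and 18.1% called lower in untreated HCC, and the 8.32% and 5.47% with miR-22. First, 8 of 9 other apolipoproteins and editing factors were tested. In untreated HCC 6 were called lower and 2 higher, with a median log2 fold change of −0.96. Clu, the HDL-borne chaperone apolipoprotein J, rose from 17760 to 19230 normalized counts in healthy liver to 80710 to 124300 (2.52 ± 0.19, adjusted p = 3.51e-07) and fell with miR-22 to 47440 to 67570 (−0.91 ± 0.18, adjusted p = 0.00369). Apoc4, from the Apoe cluster, was at −1.21 ± 0.13 and 0.80 ± 0.13 (adjusted p = 7.91e-06 and 0.00135), and Apoh, Saa4 and Apon were called lower in untreated HCC and higher with miR-22. Apof, an inhibitor of lipid transfer, was at −0.62 (adjusted p = 0.000711) and 0.56 (adjusted p = 0.00573, under the fold threshold). The first was under that threshold without untreated replicate 3 (−0.54), and the second passed it without replicate 4 of either HCC group (0.64 each). On library totals 2 of the 8 were called higher and 1 lower with miR-22, against 5 and 1 with TMM factors.

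The factors that edit Apob mRNA moved apart. Apobec1, the deaminase that makes the short apoB-48 form, had 307 to 431.8 normalized counts in healthy liver and 669.6 to 1001 in untreated HCC (1.15 ± 0.17, adjusted p = 6.82e-05), while its partner A1cf fell by 1.34 ± 0.12 (adjusted p = 1.67e-06). With miR-22, A1cf rose (0.70 ± 0.12, adjusted p = 0.00171) and Apobec1 was at −0.25 (adjusted p = 0.277). Edited and unedited Apob are not separated in gene counts.

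Of 13 genes for lipoprotein assembly and secretion, 7 were called lower and 0 higher in untreated HCC, with a median of −0.60. The 7 included Dgat2, the last enzyme of triglyceride synthesis (−1.44 ± 0.12, adjusted p = 9.91e-07), Soat2, which esterifies cholesterol (−0.95 ± 0.11, adjusted p = 1.22e-05) and Sar1b, the GTPase of the vesicles that carry pre-VLDL (−0.82 ± 0.10, adjusted p = 2.12e-05). Mttp, which loads lipid onto Apob, was at −0.48 ± 0.12 (adjusted p = 0.00387), under the fold threshold. With miR-22, 1 of the 13, Dgat2, was called higher (0.67 ± 0.12, adjusted p = 0.00217) and the median was 0.42; Soat2 was called without untreated replicate 4 (0.63) and Sar1b without replicate 2 of either HCC group (0.61 and 0.64). With a liver left out, 1 to 3 of the 13 were called higher with miR-22, with 3 without untreated replicate 4 and 2 without replicate 2 of either HCC group. In untreated HCC 5 of the 13 were called lower without healthy replicate 2 or untreated replicate 3, and 7 with any other liver left out. On library totals 1 of the 13 was called lower in untreated HCC and 0 were called with miR-22.

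Of the 12 genes of HDL formation and remodeling, 4 were called higher and 5 lower in untreated HCC, against 22.7% and 18.1% of all tested genes, and the median was −0.19. The 5 lower genes were the paraoxonases Pon1 (−2.42 ± 0.22, adjusted p = 1.69e-06) and Pon3, Lcat, which esterifies HDL cholesterol (−1.66 ± 0.15, adjusted p = 1.73e-06), hepatic lipase Lipc (−1.87 ± 0.18, adjusted p = 2.13e-06) and Lipg. The 4 higher genes were the acute-phase Saa1 (2.00 ± 0.19) and Saa2 (2.23 ± 0.24), the cholesterol exporter Abcg1 and the HDL receptor Scarb1 (0.64 ± 0.09, adjusted p = 7.91e-05; 0.57, under the fold threshold, without healthy replicate 3). Pon1 (1.503 ± 0.22), Lipc (1.22 ± 0.17), Lcat (0.98 ± 0.15) and Lipg (0.84 ± 0.27, adjusted p = 0.0396) rose with miR-22, though for Lipg the groups overlapped (512.5 ± 246 against 283.5 ± 81.6 normalized counts), while Abca1, which lipidates Apoa1, was not called in untreated HCC (−0.14, adjusted p = 0.275) or with miR-22 (0.02, adjusted p = 0.897). With a liver left out, 3 to 5 of the 12 were called higher with miR-22, and 3 under the replicate block.

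Among 12 receptor and uptake genes, 2 were called higher and 3 lower in untreated HCC, with a median of −0.30, shares near the 22.7% and 18.1% of all tested genes. The remnant receptor Lrp1 (−0.86 ± 0.15, adjusted p = 0.000352) and the heparan sulfate proteoglycan Sdc1 were among those that fell, and Lrp8 (3.38 ± 0.43, with 10, 4 and 2 counts in the healthy livers) and the Apob-sorting receptor Sort1 (2.08 ± 0.19, adjusted p = 1.58e-06) rose. On library totals 0 of the 12 were called lower in untreated HCC, and 2 were called lower and 0 higher with miR-22. Sort1 fell with miR-22 (−0.83 ± 0.18, adjusted p = 0.00611), the 1 call of the 12 in that comparison, which was lost without untreated replicate 3 (−0.58). Lrp8 was called lower with miR-22 without healthy replicate 1 (−0.83, adjusted p = 0.0436). Vldlr was not called in either comparison.

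In the lipase system of 9 genes, 1 was called higher and 2 lower in untreated HCC, near the shares of all tested genes (22.7% and 18.1%). With miR-22, 2 of the 9 were called higher and 1 lower, against 8.32% and 5.47% of all tested genes. Lpl, lipoprotein lipase itself and scarce in healthy adult liver, went from 157.7 to 242.7 normalized counts to 1210 to 1505 (2.796 ± 0.18, adjusted p = 1.25e-07) and fell with miR-22 (−0.64 ± 0.16, adjusted p = 0.0137). That fall was not called without untreated replicate 2 (−0.55), or miR-22-treated replicate 3 (−0.62, adjusted p = 0.0541) or 4 (−0.50). Angptl4, a secreted lipase inhibitor, was at −0.69 ± 0.27 (adjusted p = 0.0425) in untreated HCC and rose with miR-22 from 637.6 to 736.3 normalized counts to 1537 to 3933 (2.20 ± 0.27, adjusted p = 0.00031). Its lower call in untreated HCC was lost without healthy replicate 2 (−0.59) or 3 (−0.70), or without any 1 of the 3 untreated livers (−0.66, −0.65 and −0.76; adjusted p = 0.108, 0.111 and 0.0567).

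Of 24 regulators known to act on apolipoprotein genes, 12 were called lower and 0 higher in untreated HCC, against 18.1% and 22.7% of all tested genes, with a median of −0.63, and 8 were called higher and 0 lower with miR-22, against 8.32% and 5.47%, with a median of 0.36. Ppara, the fatty acid receptor, had 3386 to 4278 normalized counts in healthy liver, 905.6 to 1262 with the blank virus and 2389 to 3331 with miR-22 (−1.92 ± 0.16, adjusted p = 8.29e-07, and 1.44 ± 0.16, adjusted p = 0.000164). Creb3l3, a transcription factor that activates Apoa4, Apoa5 and Apoc2, fell by 0.94 ± 0.13 in untreated HCC (adjusted p = 6.79e-05), opposite to Apoa4. It rose by 0.59 ± 0.13 with miR-22 (adjusted p = 0.00739). Its rise was under the fold threshold without untreated replicate 2 or 3 (0.52 and 0.53) or miR-22-treated replicate 3 or 4 (0.57 and 0.52). Of the 24 regulators, 5 to 10 were called higher with miR-22 when a liver was left out, with 5 without untreated replicate 2. Hnf4a fell by 0.71 ± 0.13 (adjusted p = 0.00039) and was at 0.30 with miR-22 (adjusted p = 0.108). On library totals 5 of the 24 were called lower in untreated HCC and 6 higher with miR-22.

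**Figure D5:**
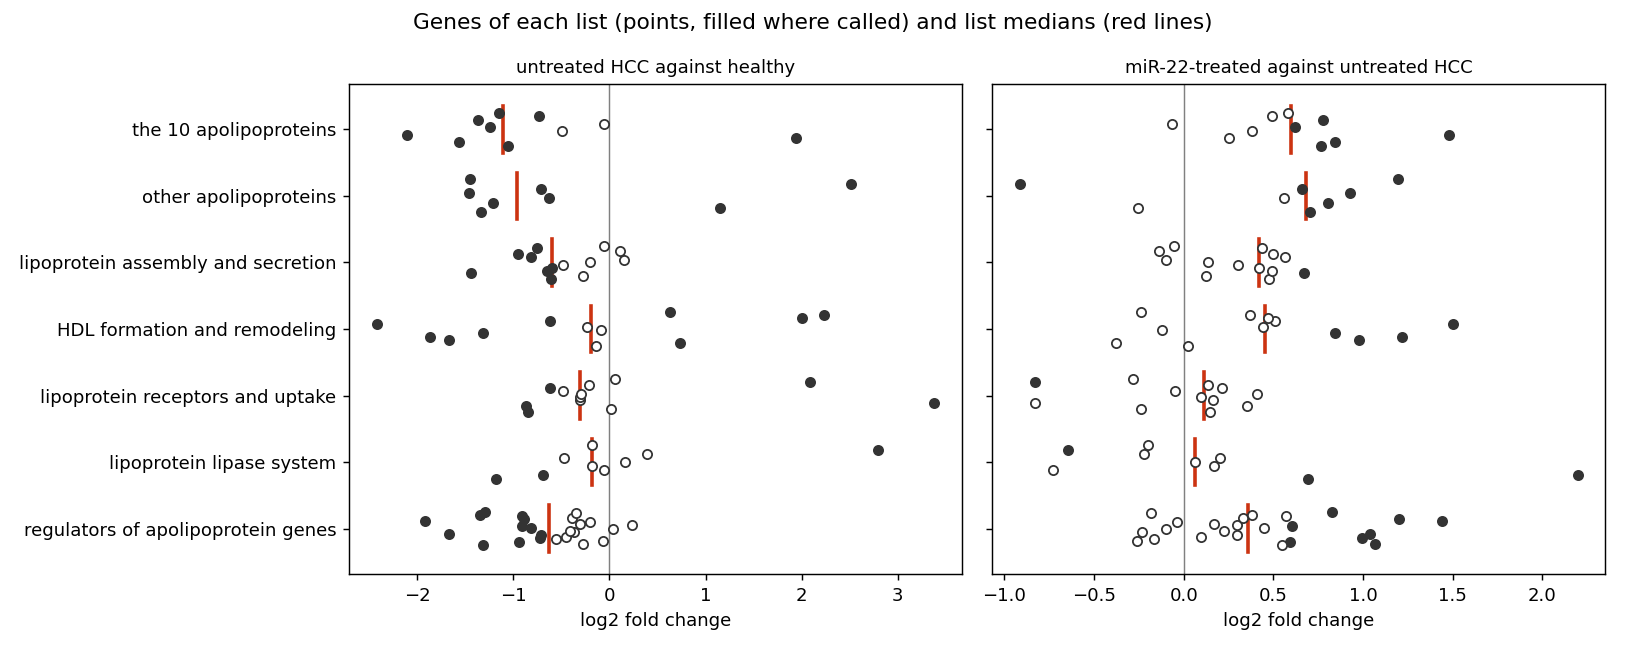
Log2 fold changes (horizontal axes) of the 10 apolipoproteins and of 6 related gene lists in 2 comparisons; points are genes, filled where called by edgeR, and red lines are list medians. In untreated HCC the medians run from −1.10 for the 10 apolipoproteins to −0.18 for the lipase system.

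The profiles of the 10 genes over the 9 livers were set against all other tested genes, by the root mean square difference of log2 CPM after centering. The nearest gene was 0.048 to 0.215 log2 units away. Apoa4 had the most distant nearest gene, the complement gene C6 (0.215), followed by Gm19705 (0.326) and Scd1 (0.327), the stearoyl-CoA desaturase. Among the other triglyceride-related genes, Apoa5 was nearest to Gm45838 (0.131), Aspg (0.153) and Slc17a2 (0.166), and Apoc3 to Cyb5a (0.086), Apoa2 (0.096) and Ebpl (0.098). The nearest to Apoc1 were Sod1 (0.102), Etfb (0.112) and Dnph1 (0.115), and to Apoc2 Rfxap (0.135), Hps6 (0.142) and Kank3 (0.149). For Apoa1 they were mt-Rnr1 (0.09), Serpina11 (0.117) and Il15ra (0.12), for Apoa2 Ugt1a6a (0.082), Agmat (0.082) and Pemt (0.083), and for Apom Iah1 (0.053), Sec14l2 (0.054) and Tmem150a (0.054). Apob was nearest to Cryz (0.053), Lap3 (0.057) and Ngly1 (0.061), and Apoe to Dhrs4 (0.048), Coasy (0.055) and Uqcrq (0.056). All livers share library scaling in this measure, so it is a description.

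Because the vector carries miR-22, its seed was searched in the annotated 3′ ends of the 10 genes. Mature miR-22-3p (RefSeq, chr11:75463772-75463793, GRCm38.p6, plus strand) is printed with its seed, bases 2 to 8, in capitals, and so is the single match, in an annotated 3′ UTR of Apoc3 (chr9:46143112-46143141, GRCm39, minus strand), with the 7 matching bases in capitals.
miR-22-3p: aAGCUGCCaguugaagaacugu
Apoc3 site: tgggcttggcaGGCAGCTcaggtggtagag

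The Apoc3 stretch is present in 4 of the 11 annotated transcripts of the gene, and the other 9 genes held no GGCAGCT in the 3′ UTR of their canonical transcript. Of 13543 tested genes with an annotated 3′ UTR, 16.9% held it. Apoc3 itself was higher in all 3 miR-22-treated livers than in any untreated one.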

How the data were processed

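RNA of 9 mouse livers was sequenced from libraries that do not mark strand. The authors estimated reads per gene with Salmon (version not given in the sources used here) after FastQC 0.11.7 and deposited them as whole-number counts, 16664659 to 23908392 per library. They also deposited a normalized signal, in which each library was scaled by its own size factor from DESeq2 1.18; 100% of its values gave back the counts within 0.01, so it held no separate data. Depth limits Apoc2 and other genes of low counts most, and intervals cover counting error only.

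Counts were fitted in R 4.3.3 with edgeR 4.0.16: TMM scaling, filterByExpr, a quasi-likelihood test over all 9 libraries in 1 fit, and Benjamini-Hochberg adjustment over the 15717 genes tested. Calls needed an adjusted p below 0.05 together with more than a 1.5-fold change. The procedure was tested on simulated data. Shares of library were compared by exact permutation. Alternatives were DESeq2 1.42.0, other scalings and filters, 2 groups at a time, no fold threshold, a replicate block, and each liver left out. The 10 genes, the 6 pathway lists and the 8 marker lists were chosen with earlier results of these data known; 1 symbol was matched through a synonym.

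Named were the 10 genes, a fixed set of pathway genes, the 3 genes of each list with the smallest p in untreated HCC against healthy liver and with miR-22, and the 3 nearest profiles. Other called list genes were named after their values were seen, and some list genes are counted but not reported here by name. Loci came from GENCODE M39 (GRCm39), matched by gene ID, and promoters from RefSeq (GRCm38.p6). Figures were drawn with Python 3.11.15 and matplotlib 3.10.9.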

Additional observations from a re-analysis of the deposited data

How the results depend on the processing

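Precision was limited by 3 livers per group and, for Apoc2, by counts of 58 to 154. Of the 10 genes, 8 were called in untreated HCC against healthy liver with any liver left out (8 to 8), 3 to 7 with miR-22 (3 without untreated replicate 3 or miR-22-treated replicate 3, 7 without untreated replicate 4), and 3 to 5 in treated against healthy liver (3 without healthy replicate 1 or miR-22-treated replicate 2). On library totals these counts were 7, 2 and 1. Over all genes, 2167 were called with miR-22, 1433 to 2660 with a liver left out (1433 without miR-22-treated replicate 3) and 3777 with no fold threshold; in treated against healthy liver 3772 were called, and 5732 with no fold threshold. The summed share differed by −1.11 to −0.772, 0.577 to 0.96 and −0.322 to −0.000574 percentage points with a liver left out. Where a call was lost, the cause was not tested.

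With the replicate number as a block, 8, 5 and 2 of the 10 genes were called. The 2 in treated against healthy liver were Apoa4, higher, and Apoa2, lower. No HCC liver has number 1 and no healthy liver number 4. Healthy replicate 1 was therefore alone in its block and did not inform the comparisons with healthy liver, which makes these 2 counts less precise. Livers of the same number correlated at −0.121, −0.13 and −0.235 in their deviations between the HCC groups. Livers of different numbers correlated at −0.014 to 0.13, so those of the same number were not more alike by this measure. So few livers cannot decide whether the numbers pair them, and healthy livers were not compared in this way. Under the block Apoc1 (0.60) was not called and Apom (0.59) was called with miR-22.

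Directions reversed for values near 0, none of them called. Apoc2 was at 0.36 on library totals, 0.022 without healthy replicate 2 and 0.053 without untreated replicate 3 in untreated HCC, with miR-22 from −0.371 to 0.16 with a liver left out (0.16 without miR-22-treated replicate 2), and in treated against healthy liver at 0.07 on library totals and from −0.428 to 0.093 with a liver left out (0.093 without that replicate), where Apob was at 0.071 on library totals. With miR-22, Apoa4 ran from −0.012 without untreated replicate 3 to 0.621 without untreated replicate 2. In untreated HCC Vldlr was at −0.12 under the block and −0.15 without healthy replicate 1, and on library totals Pltp was at 0.18, Abca1 at 0.29, Mylip at 0.12 and Cebpb at 0.15. With miR-22, library totals gave Abca1 −0.22 and Lmf1 −0.036. Abca1 was at −0.003 with DESeq2, with its size factors and without untreated replicate 2, −0.017 with upper-quartile factors, −0.037 without miR-22-treated replicate 2 and −0.015 without replicate 3. Over the 10 genes, 492 alternative values kept direction and call, 29 lost a call, 11 gained one and 8 reversed.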
